A study of Sus scrofa with 31 samples.

Results

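Chemokines are small secreted proteins that draw leukocytes out of the blood, and cyclooxygenase 2 is the inducible enzyme that starts prostaglandin synthesis. The 6 genes described here encode 5 chemokines, CXCL2, CXCL8, CXCL10, CCL2 and CX3CL1, and the cyclooxygenase, PTGS2. They were taken by gene name from the 2 deposited expression tables, and the set was chosen with earlier results of these data known. All 6 were among the 21313 genes listed for storage, and 5 were among the 25149 genes listed after machine perfusion. CXCL10 was not analysed after perfusion.

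The messages of these genes are made at a low rate in resting heart and are induced through NF-kappaB when endothelial cells, fibroblasts, macrophages or muscle cells meet cytokines, damaged tissue or returning oxygen. CXCL2 and CXCL8 bind CXCR2 on neutrophils, CCL2 binds CCR2 on monocytes, CXCL10 binds CXCR3 on activated T and NK cells, and CX3CL1 is a membrane-bound ligand of CX3CR1 that endothelial cells display and shed. Several of them have short-lived messages, and in transplantation they are known as early markers of inflammation in reperfused grafts.

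The study measured RNA from pig (Sus scrofa) myocardium in 2 arms. The storage arm followed 6 pig hearts through biopsies at 0, 12, 24 and 48 h, with pigs 1, 3 and 5 in SCS and pigs 2, 4 and 6 in HOPE, so that each of its 8 groups holds 3 libraries, 24 in all. In the perfusion arm, 2 samples each after 3, 24 and 48 h of HOPE and 1 after 24 h of SCS, each called a heart below although the labels do not number the animals, went through 2 h of normothermic machine perfusion (NMP), in which a heart is perfused at body temperature, before the biopsy. SCS and HOPE are not written out in the labels. In this field they usually mean static cold storage and hypothermic oxygenated perfusion. Strain, age, sex and genotype are not given for any group, and no heart without storage before NMP is among the samples used here.

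Storage values are normalized counts, gene counts divided by a size factor per library, and rest on 19722065 to 35099406 reads per library. Perfusion values are TPM, transcripts scaled for length to a fixed total per library, whose depth is unknown. The labels name cardiomyocytes as the cell type, but the libraries hold RNA of whole tissue: endothelial markers, for example, summed to between 15615 and 64811 normalized counts in the storage libraries. Mitochondrially encoded genes took 29.0 to 39.5% of the signal in HOPE storage libraries and 33.1 to 82.4% in SCS storage libraries, with the highest share in the 48 h SCS library of pig 5. In the perfusion arm the SCS library stood apart. Its 6 cardiomyocyte markers summed to 2356 TPM, against 36330 to 58675 TPM in the 6 HOPE libraries, its fibroblast markers to 2753 TPM against 570 to 1222 TPM, and its red cell markers to 6274 TPM against 35.8 to 3171 TPM. Every statement below on SCS followed by NMP rests on that single library.

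After NMP, all 5 measured genes were at their lowest in the hearts stored for 3 h and higher in every heart stored for 24 or 48 h. Among the HOPE groups, CXCL2, CXCL8, PTGS2 and CCL2 had their highest mean after 48 h, at 11.5, 8.46, 5.71 and 3.55 times the 3 h mean on the TPM scale, whereas CX3CL1 had its highest mean after 24 h. None of these differences passed the test over all genes, in which no gene of 10986 did. In bulk tissue, a change in RNA per cell and a change in the number of cells that make it cannot be told apart.

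CXCL2, a neutrophil attractant on chromosome 8 (70157253 to 70159145, Sscrofa11.1, RefSeq), was at 83.2 and 35.5 TPM in the 2 hearts perfused after 3 h of HOPE, at 400 and 180 TPM after 24 h and at 1050 and 314 TPM after 48 h. The 3 h hearts were below all others, while the 24 h and 48 h hearts overlapped. On the log2(TPM + 1) scale the 48 h hearts were higher by 3.38 ± 0.67 (SE, n = 2 against 2; limma adjusted p = 0.313) and the 24 h hearts by 2.28 ± 0.67 (limma adjusted p = 0.299). Its fitted difference from 3 to 48 h ranked 6 from the highest of 10986 genes tested.

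CXCL8, also known as interleukin 8 and encoded near CXCL2 on chromosome 8 (69932646 to 69935861), was the least abundant of the 5 in the 3 h hearts, at 5.33 and 2.54 TPM. It stood at 13.6 and 6.34 TPM after 24 h and at 51.8 and 14.8 TPM after 48 h. Here the groups did not overlap: both 48 h hearts were above both 24 h hearts, and these above both 3 h hearts. The difference of 48 h from 3 h was 2.61 ± 0.62 on the log2(TPM + 1) scale (limma adjusted p = 0.435) and that of 24 h from 3 h was 1.13 ± 0.62 (limma adjusted p = 0.451).

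CCL2, the main monocyte attractant of the set (chromosome 12, 40798109 to 40800013), was the most abundant member in every perfused heart. Its level was 961 and 277 TPM after 3 h, 2114 and 1332 TPM after 24 h, and 2482 and 1919 TPM after 48 h of HOPE. The 3 h hearts were again below the rest, and the 24 h and 48 h hearts overlapped. The fitted differences from 3 h were 1.70 ± 0.55 at 24 h (limma adjusted p = 0.311) and 2.08 ± 0.55 at 48 h (limma adjusted p = 0.532) on the log2(TPM + 1) scale.

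PTGS2, which converts arachidonic acid to the precursor of the prostaglandins (chromosome 9, 127850164 to 127858866), was at 14.3 and 6.64 TPM after 3 h, at 44.6 and 21.7 TPM after 24 h and at 81.2 and 38.1 TPM after 48 h. As for CXCL2, only the 3 h hearts were separate from the others. Its difference was 1.57 ± 0.53 at 24 h (limma adjusted p = 0.312) and 2.39 ± 0.53 at 48 h (limma adjusted p = 0.407).

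CX3CL1 (chromosome 6, 19312351 to 19324439) followed another course. It was at 10.7 and 6.64 TPM after 3 h, at 39.4 and 15.3 TPM after 24 h and at 10.8 and 14.8 TPM after 48 h, so that both 24 h hearts were above both 48 h hearts, and one 48 h heart lay only just above the higher 3 h heart. The fitted difference from 3 h was 1.44 ± 0.46 at 24 h (limma adjusted p = 0.306) and 0.53 ± 0.46 at 48 h (limma adjusted p = 0.823), and that of 48 h from 24 h was -0.91 ± 0.46 (limma adjusted p = 0.864). The endothelial markers, of the cells that display CX3CL1, summed to 459 and 235 TPM after 3 h, to 476 and 562 TPM after 24 h and to 423 and 257 TPM after 48 h. Their part in the course of CX3CL1 was not tested.

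**Figure D1:**
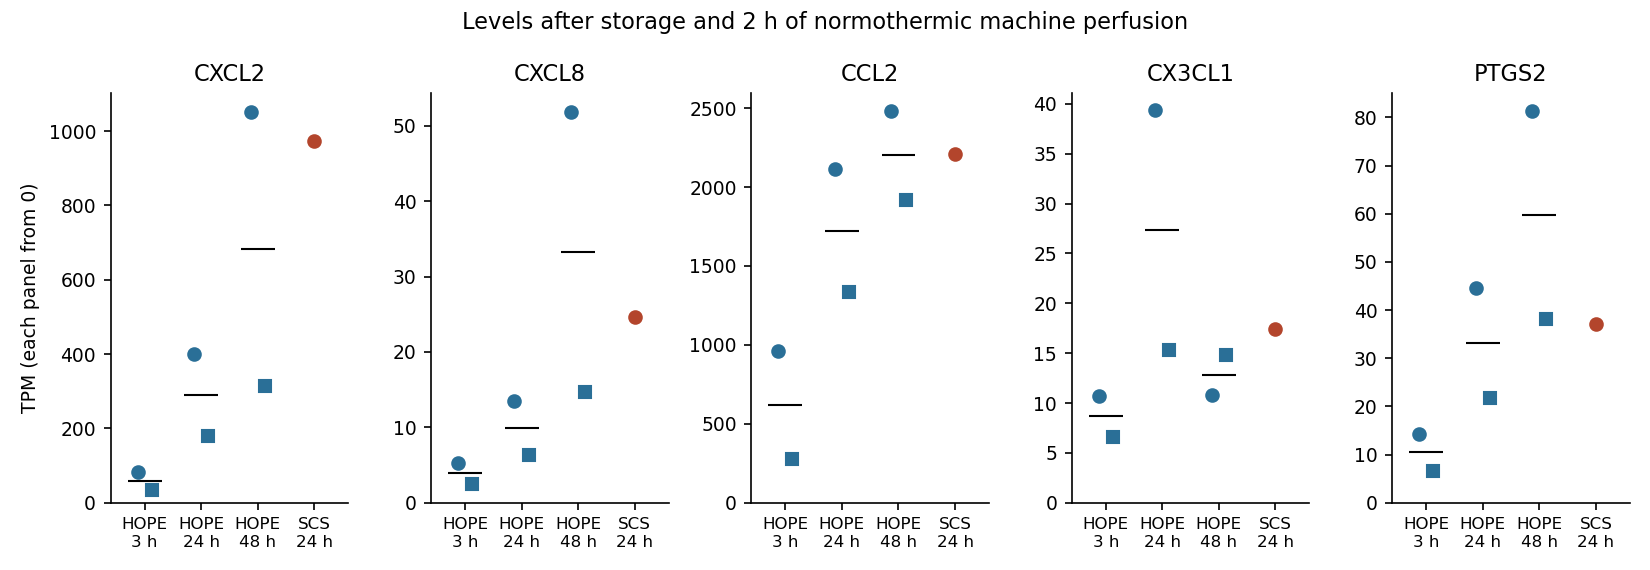
Level of the 5 genes in each heart after storage and 2 h of NMP, in TPM on linear axes from 0. Each point is 1 library (circle, number 1; square, number 2), the bar is the mean of 2 libraries, HOPE is blue and the single SCS library red. Both 3 h hearts lie below all other hearts for each gene, and among the HOPE groups CX3CL1 alone has its highest mean at 24 h.

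All 5 members had the 24 h and 48 h hearts above both 3 h hearts, which held for 15.9% of the 10986 genes tested. At an unadjusted limma p under 0.05, CXCL2, CXCL8, PTGS2 and CCL2 were higher at 48 h than at 3 h, 4 of 5 members beside 5.77% of all genes. At 24 h CXCL2, CCL2, PTGS2 and CX3CL1 were higher than at 3 h by that measure, 4 of 5 beside 12.8% of all genes. That 24 h count was 0 without HOPE 24 h number 1 and without HOPE 3 h number 2, and was 3 to 5 in the other alternatives, while the 48 h count was 4 in each alternative. After adjustment limma called 0% of genes in the 24 h against 3 h comparison (1501 at an unadjusted p under 0.05), 0% in the 48 h against 3 h comparison (839) and 0% in the 48 h against 24 h comparison (577), and no member. A count test could not be run on TPM. The median member was higher by 2.39 from 3 to 48 h on the log2(TPM + 1) scale, beside a median of 0.03 over all genes, and by 1.57 from 3 to 24 h, beside 0.26. From 24 to 48 h it was higher by 0.82, beside -0.21. The members were chosen with earlier results of these data known, so these shares and medians describe them and are no test.

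Within each storage time, the library numbered 1 had the higher level in 14 of 15 pairs of values, the exception being CX3CL1 at 48 h. The fitted increases of CXCL2 from 3 to 48 h ran from 2.51 to 4.24 over the alternatives tried, and those of CXCL8, PTGS2 and CCL2 from 1.74 to 3.48, 1.86 to 2.93 and 1.18 to 2.97. The lowest values came from leaving out 48 h number 1 for CXCL2, CXCL8 and PTGS2 and 3 h number 2 for CCL2, and the highest from leaving out the other library of the same group. The differences of 24 h from 3 h ran from 1.68 to 2.88 for CXCL2, 0.80 to 2.59 for CCL2, 1.07 to 2.08 for PTGS2, 0.79 to 2.10 for CX3CL1 and 0.63 to 1.62 for CXCL8.

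Markers of other cell types were summed in the same perfused HOPE hearts. The red cell markers, 5 of 6 listed and none at 0 throughout a group, summed to 107 to 153 TPM at 3 h, 35.8 to 128 TPM at 24 h and 1594 to 3171 TPM at 48 h. T and NK cell markers summed to 17.5 to 30.9 TPM at 3 h, 17.2 to 37.5 TPM at 24 h and 31.7 to 59.0 TPM at 48 h, macrophage and monocyte markers to 81.9 to 146 TPM, 92.4 to 189 TPM and 113 to 155 TPM, and neutrophil markers to 2.43 to 3.88 TPM, 2.32 to 3.12 TPM and 5.18 to 6.66 TPM. Of the 8 neutrophil markers found, CSF3R, MMP8 and MPO were listed at 0 in every perfused group shown. Fibroblast markers summed to 570 to 642 TPM, 902 to 1222 TPM and 981 to 1016 TPM. The red cell, T and NK cell, neutrophil and fibroblast sums were higher at 48 h than at 3 h without overlap. Of these only the fibroblast sums were also higher at 24 h than at 3 h without overlap. At 24 h 6 of 6 fibroblast markers had positive fitted differences (4 at an unadjusted limma p under 0.05). The macrophage sums overlapped at all times. The limma fit called 0 markers of these lists in either comparison with 3 h. The part of these cells in the members' levels was not tested.

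The other genes of the pathway, from lists compiled for this purpose, held 0 calls from 3 to 48 h. Of 33 other chemokine ligands listed, 13 were found and 8 reached the minimum mean of 1 TPM for testing. All 8 had positive fitted differences, with a median of 0.91 on the log2(TPM + 1) scale and 0 called by limma, where 53.1% of all genes were positive. The largest belonged to AMCF-II, a pig neutrophil chemokine of the CXC family, at 1.22 and 0.114 TPM after 3 h and 20.7 and 5.90 TPM after 48 h (2.96 ± 0.66, limma adjusted p = 0.408). Its 3 h mean was under that minimum, so AMCF-II was tested only through its levels in the other groups. A ligand low at 3 h enters the list only if it is higher later, so the count of positive signs is no test. CCL5 and CXCL11, which attract T cells, differed by 1.27 ± 0.37 and 1.58 ± 0.52 (limma adjusted p = 0.536 and 0.591).

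Among NF-kappaB subunits and the inhibitors they induce, 14 of 16 had positive differences from 3 to 48 h, with a median of 0.57 and 0 called by limma (5 at an unadjusted p under 0.05). TNFAIP3, the deubiquitinase that shuts off NF-kappaB signalling, was at 7.93 and 4.86 TPM after 3 h, 34.9 and 15.3 TPM after 24 h and 49.1 and 16.2 TPM after 48 h. Its difference of 2.02 ± 0.58 was followed by those of the subunit REL at 1.40 ± 0.40 and of the inhibitor NFKBIA at 1.03 ± 0.36 (limma adjusted p = 0.536, 0.536 and 0.607). The prostanoid list divided: 7 of 11 were positive with a median of 0.28, and PTGES, the inducible synthase that acts after PTGS2, differed by 0.80 ± 0.32 (limma adjusted p = 0.634). Of 17 chemokine receptors found, 5 reached the minimum mean of 1 TPM, with the same limit as for the ligands. Of these 5, 4 were positive, CCR7 the most at 1.25 ± 0.36 (limma adjusted p = 0.536). In the list of upstream cytokines, alarmins and their receptors 12 of 20 were positive with a median of 0.25, a share close to the 53.1% of all genes. Positive differences were also found in 6 of 7 inducible inflammatory partners (median 0.64). They were found too in 7 of 8 genes listed for decay or restraint of short-lived messages (median 0.49) and 2 of 3 genes linked to CX3CL1 shedding (median 0.13).

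**Figure D2:**
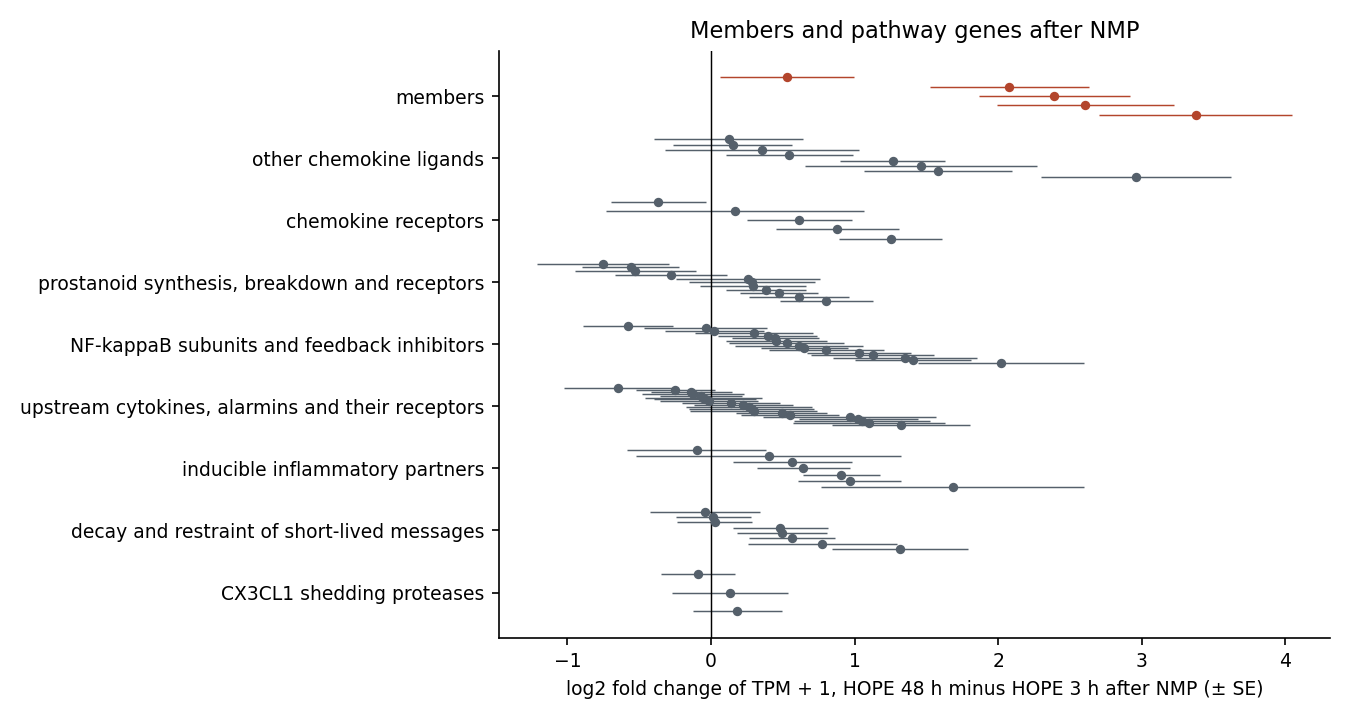
Fitted difference between 48 h and 3 h of HOPE, both followed by NMP, for the 5 members (red) and for the testable genes of 8 pathway lists (grey), on the log2(TPM + 1) scale with bars of 1 SE. The members CXCL2, CXCL8, PTGS2 and CCL2 lie between 2.08 and 3.38, and AMCF-II at 2.96 is the only listed gene beyond 2.02.

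With the 1 heart perfused after 24 h of SCS, CXCL2 was at 974 TPM, CXCL8 at 24.6 TPM, CCL2 at 2207 TPM, PTGS2 at 37.2 TPM and CX3CL1 at 17.5 TPM. CXCL2, CXCL8 and CCL2 were above both hearts perfused after 24 h of HOPE, and PTGS2 and CX3CL1 were between them. The fitted difference from those hearts was 1.86 ± 0.82 for CXCL2 (limma adjusted p = 0.129), 1.31 ± 0.75 for CXCL8 (limma adjusted p = 0.224) and 0.40 ± 0.68 for CCL2 (limma adjusted p = 0.685), with the lone library taken to vary like the others. PTGS2 and CX3CL1 differed by 0.25 ± 0.64 and -0.48 ± 0.57 (limma adjusted p = 0.793 and 0.552). None of the 5 members was called, while 26.4% of all genes were, 2699 lower and 198 higher, with a median of -0.73 over all genes. CCL5 was among the higher genes, by 1.82 (limma adjusted p = 0.0256), and was not called without HOPE 24 h number 1 (1.35, limma adjusted p = 0.105). The low cardiomyocyte and high red cell and fibroblast marker sums of this library move with all these values, and their part was not tested.

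During storage itself, no member passed the test over all genes between times or conditions, unless the pig was taken as a block. CXCL8 and PTGS2 were close to the limit of detection. CCL2 was above its own 0 h level in all 3 SCS hearts at each later time, CXCL10 was below its own 0 h level in all 3 HOPE hearts at each later time, and CX3CL1 was lowest in SCS at 48 h.

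CXCL2 was at 98.8, 227 and 113 normalized counts at 0 h of SCS (pigs 1, 3 and 5) and at 104, 156 and 158 at 48 h. In HOPE (pigs 2, 4 and 6) it was at 47.3, 37.7 and 134 at 0 h and at 49.97, 95.0 and 128 at 48 h. The conditions overlapped at every time. HOPE was lower than SCS by 1.12 ± 0.49 at 0 h, by 0.99 ± 0.49 at 12 h, by 1.05 ± 0.49 at 24 h and by 0.69 ± 0.49 at 48 h on the log2(normalized count + 1) scale (limma adjusted p = 0.665, 0.312, 0.173 and 0.364). The difference was therefore as large at the start of storage as later.

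CXCL8 was represented by 119 reads in all 24 storage libraries, with 0 to 12 reads each and 5 libraries at 0, where counting alone allows up to 3 reads. At a mean of 4.99 normalized counts it was under the minimum of 10 for testing, so differences in CXCL8 during storage were not detectable at this depth.

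CCL2 was at 131, 230 and 299 normalized counts at 0 h of SCS, at 197, 279 and 446 at 12 h, at 278, 306 and 516 at 24 h and at 221, 320 and 462 at 48 h (pigs 1, 3 and 5). In HOPE it was at 253, 371 and 125 at 0 h, at 208, 148 and 147 at 12 h, at 176, 187 and 162 at 24 h and at 202, 196 and 179 at 48 h (pigs 2, 4 and 6). Levels in HOPE hearts drew together from 12 h on, with pigs 2 and 4 below and pig 6 above its 0 h level, and at 24 and 48 h all 3 were below all 3 SCS hearts. Such a separation held for 12.9% of the 14141 genes tested at 24 h and for 10.2% at 48 h, and at 0 h for 6.19% of genes and no member.

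All 3 SCS hearts were above their own 0 h level of CCL2 at 12, 24 and 48 h, which held for 3.87% of genes. The fitted difference from 0 h was 0.76 ± 0.38 at 24 h and 0.62 ± 0.38 at 48 h (limma adjusted p = 0.999 and 0.713). With the pig as a block the SE was 0.22 (limma adjusted p = 0.291 and 0.129). With total-count scaling, which moves the median of all genes to -0.99, the 48 h difference was -0.36. HOPE was lower than SCS by 0.81 ± 0.38 at 12 h, by 1.01 ± 0.38 at 24 h and by 0.73 ± 0.38 at 48 h (limma adjusted p = 0.298, 0.109 and 0.208). The difference between the conditions in the change from 0 to 24 h was -1.14 ± 0.53 (limma adjusted p = 1.00). With the block its SE was 0.31 (limma adjusted p = 0.308). Without SCS pig 1 the 24 h difference between conditions was -1.18 and passed (limma adjusted p = 0.0320), in a fit that called 2726 genes against 288 with all pigs.

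CXCL10, which interferon induces (chromosome 8, 71693641 to 71695948), was at 462, 1028 and 643 normalized counts at 0 h of SCS and at 169, 528 and 623 at 48 h. In HOPE it was at 390, 730 and 789 at 0 h, at 261, 311 and 318 at 12 h, at 345, 528 and 284 at 24 h and at 273, 263 and 410 at 48 h. All 3 HOPE hearts at 12 h were below all 3 at 0 h, which held for 1.61% of genes, and below all 3 SCS hearts at 12 h, which held for 12% of genes. Each HOPE heart was below its own 0 h level at all 3 later times, which held for 2.83% of genes.

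The T and NK cell markers, of the cells that CXCL10 attracts and of which 11 of 12 listed were found, moved alongside in HOPE. In HOPE (pigs 2, 4 and 6) they summed to 634, 592 and 1415 normalized counts at 0 h, to 370, 344 and 470 at 12 h, to 477, 400 and 431 at 24 h and to 373, 285 and 509 at 48 h. Each heart was thus below its own 0 h sum at each later time. The 11 markers had median differences from 0 h of -0.96, -0.75 and -1.06 at 12, 24 and 48 h, with 0 of 11 positive and 0 called by limma at each time. In SCS (pigs 1, 3 and 5) the T and NK cell sums were 1137, 1624 and 1054 normalized counts at 0 h. At 48 h they were 846, 1374 and 1155. Pig 3 had a sum of 2260 at 24 h, with CXCL10 at 700 against 1028 at 0 h. Endothelial markers also had 0 of 13 positive differences at 12 and 24 h of HOPE, and 4 of 13 at 48 h. The part of these cells in the CXCL10 levels was not tested.

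On the log2(normalized count + 1) scale CXCL10 differed from 0 h by -1.04 ± 0.45 at 12 h of HOPE, by -0.71 ± 0.45 at 24 h and by -0.98 ± 0.45 at 48 h (limma adjusted p = 1.00 at each time). With the pig as a block the SE was 0.25 (limma adjusted p = 0.998, 0.508 and 0.288). In SCS the difference at 48 h was -0.82 ± 0.45 (limma adjusted p = 0.683, and 0.0855 with the block), with pig 5 close to its 0 h level. HOPE minus SCS was -0.15 ± 0.45 before storage, -0.72 ± 0.45 after 12 h, -0.49 ± 0.45 after 24 h and -0.31 ± 0.45 after 48 h (limma adjusted p = 0.926, 0.404, 0.484 and 0.685). Without SCS pig 1 it passed at 24 h (-0.95, limma adjusted p = 0.0430) and at 48 h (-0.89, limma adjusted p = 0.0478), whereas without SCS pig 5 it was 0.045 at 48 h.

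CX3CL1 was at 285, 328 and 353 normalized counts at 0 h of SCS, at 279, 197 and 355 at 12 h, at 111, 338 and 370 at 24 h and at 38.0, 218 and 105 at 48 h. In HOPE it was at 211, 127 and 368 at 0 h and at 184, 189 and 281 at 48 h. All 3 SCS hearts at 48 h were below all 3 at 0 h, which held for 6.21% of genes, and pig 1 was already low at 24 h. The HOPE hearts at 0 and 48 h overlapped.

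The fitted CX3CL1 difference of 48 h from 0 h in SCS was -1.73 ± 0.51 (limma adjusted p = 0.426). With the pig as a block the same difference had an SE of 0.38 and passed (limma adjusted p = 0.0317), in a fit that called 2.18% of genes. That call was lost in the blocked fit without pig 1 (-1.16, limma adjusted p = 0.0748), without pig 5 (-1.73, limma adjusted p = 0.124) and without the 48 h library of pig 5 alone (-1.61, limma adjusted p = 0.0993), and was kept without pig 3. HOPE was higher than SCS at 48 h by 1.15 ± 0.51 (limma adjusted p = 0.151), and the change from 0 to 48 h differed between conditions by 1.73 ± 0.73 (limma adjusted p = 0.988). With the block the SE of that difference in change was 0.53 (limma adjusted p = 0.162). Endothelial markers summed to 48186, 61427 and 55736 normalized counts at 0 h of SCS and to 15615, 54151 and 59526 at 48 h, so that they were lower at 48 h in pigs 1 and 3 and not in pig 5. Of the 13 markers 2 had positive differences from 0 to 48 h of SCS, with a median of -0.71 and 0 called by limma (2 at an unadjusted p under 0.05, and 1 called lower with the pig as a block). Their part in the CX3CL1 levels was not tested.

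PTGS2 was represented by 281 reads in all 24 storage libraries, 0 to 30 in each. It was at 14.6, 11.8 and 10.8 normalized counts at 0 h of SCS, at 14.5, 39.6 and 0 at 24 h and at 6.33, 36.3 and 2.92 at 48 h. In HOPE it was at 8.39, 12.6 and 8.10 at 0 h, at 10.6, 9.93 and 1.02 at 24 h and at 8.82, 10.9 and 6.89 at 48 h. Pig 3 at 24 and 48 h held the highest values, and the SCS hearts moved apart in both directions. The PTGS2 mean over all storage libraries, 11.7 normalized counts, passed the minimum of 10 for testing, but without SCS pig 3 it did not. The fitted difference of 24 h from 0 h was -0.63 ± 1.01 in SCS and -0.73 ± 1.01 in HOPE (limma adjusted p = 0.999 in both), with errors larger than the differences. The SCS group means lay the other way, at 12.4 normalized counts at 0 h and 18.0 at 24 h, and the sign was positive with edgeR (0.57), DESeq2 (0.55) and a pseudocount of 10 (0.042).

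**Figure D3:**
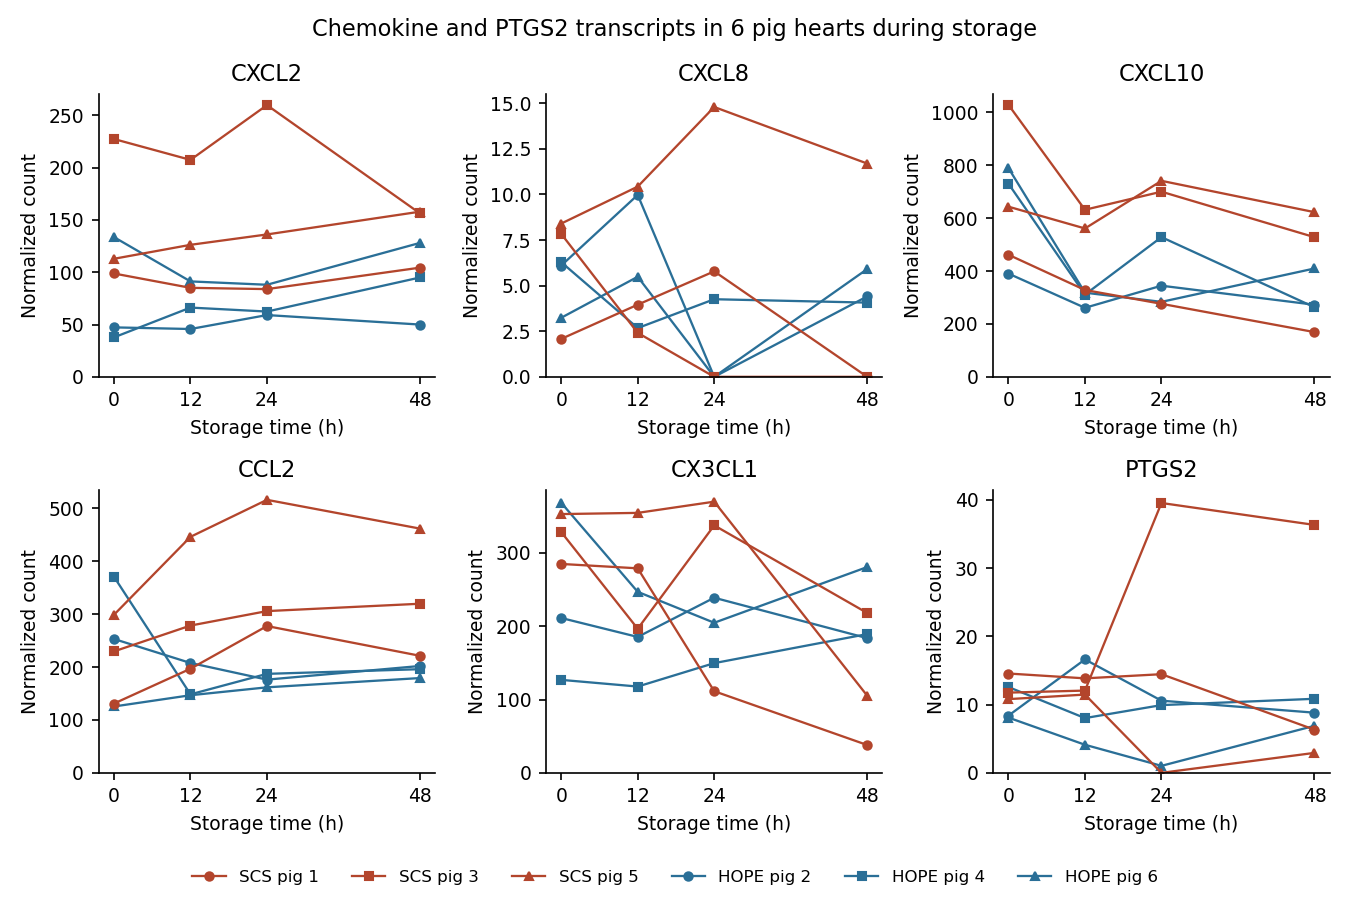
Normalized count of the 6 genes in each heart at 0, 12, 24 and 48 h of storage, on linear axes from 0. Each line is 1 pig, 3 in SCS (red) and 3 in HOPE (blue). CCL2 is above its 0 h level in each SCS heart, CXCL10 lies below its 0 h level in each HOPE heart, and CX3CL1 reaches its lowest value, 38.0, in SCS pig 1 at 48 h.

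Across the storage comparisons the main limma fit (all pigs, deposited scaling, no block) called no member at an adjusted p under 0.05. It called 0% of the 14141 genes for 12, 24 and 48 h against 0 h in either condition. It also called 0% for the difference between conditions at 0 h and for all 3 differences in change. For HOPE against SCS it called 0.0141% at 12 h, 2.04% at 24 h and 6.25% at 48 h. The main fit took its spread from all storage libraries and treated the biopsies of 1 pig as independent. With only the groups compared in the fit, limma called 0 genes for HOPE against SCS at 12, 24 and 48 h. With the pig as a random block it called 6, 1396 and 1628 genes. The count tests of edgeR and DESeq2 on the recovered reads called no member either. With the block the 1 call was CX3CL1 at 48 h of SCS (limma adjusted p = 0.0317). At an unadjusted limma p under 0.05 the largest within-condition count over all genes was 1142, for 48 h of SCS, with CX3CL1 among them.

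In the pathway lists the calls during storage were all between conditions, at 24 and 48 h. All 14 testable other chemokine ligands were lower in HOPE than in SCS at 24 h, with a median of -0.93 on the log2(normalized count + 1) scale beside 0.01 over all genes, and 1 of them was called. This was CCL4, which attracts monocytes and T cells, at 95.4, 198 and 166 normalized counts in SCS and 55.5, 22.7 and 69.6 in HOPE (-1.69 ± 0.44, limma adjusted p = 0.0493). At 0 h 3 of the 14 were positive, with a median of -0.51. Of the cell type markers at 24 h, 0 of 11 T and NK cell markers were positive (median -1.39, 3 called lower), 0 of 13 endothelial markers (median -0.81 at 24 h and at 0 h, 0 called) and 1 of 8 fibroblast markers (median -0.66, 0 called). Smooth muscle and pericyte markers were positive in 1 of 9 (median -0.43) and macrophage and monocyte markers in 4 of 12 (median -0.44). Cardiomyocyte markers were positive in 7 of 9 (median 0.68) and red cell markers in 2 of 3 (median 2.82), with 0 called in these 4 lists. The part of these cells in the ligand levels was not tested.

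PTGS1, the constitutive cyclooxygenase, was lower in HOPE in the same comparison, at 453, 335 and 312 normalized counts in SCS and 258, 169 and 132 in HOPE (-1.01 ± 0.25, limma adjusted p = 0.0457), the only call among 18 prostanoid genes. Both calls were lost by edgeR (adjusted p = 0.0574 and 0.0528) and without any one of HOPE pigs 2 and 4 and SCS pigs 3 and 5, where the limma adjusted p was 0.0729 to 0.288. The PTGS1 call was also lost without HOPE pig 6 (limma adjusted p = 0.0547). With only the groups compared in the fit, the CCL4 and PTGS1 calls were both lost (limma adjusted p = 0.0968 and 0.108).

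Between conditions at 48 h limma called 1 of 18 NF-kappaB genes lower, 1 of 18 prostanoid genes higher and, among 22 cytokines, alarmins and receptors, 2 lower. IL18, a cytokine that the inflammasome activates, was lower in HOPE (-2.15 ± 0.41, limma adjusted p = 0.0151), as it was at 24 h (-1.78 ± 0.41, limma adjusted p = 0.0365), the only call of its list at that time. The lymphotoxin gene LTB was also lower (-1.38 ± 0.36, limma adjusted p = 0.0329). RELB, a subunit of NF-kappaB, was at 217, 150 and 228 normalized counts in SCS and 86.7, 89.5 and 114 in HOPE (-1.01 ± 0.27, limma adjusted p = 0.0375). AKR1B1, an aldose reductase that can also make prostaglandin F, was at 1472, 763 and 541 normalized counts in SCS and 2222, 3220 and 2644 in HOPE (1.65 ± 0.39, limma adjusted p = 0.0251). Each of these 5 calls was lost without any one of HOPE pigs 2 and 4 and SCS pigs 3 and 5, and the highest limma adjusted p over all alternatives was 0.181 for IL18 at 24 h and, at 48 h, 0.214 for IL18 and AKR1B1, 0.587 for LTB and 0.837 for RELB. With total-count scaling RELB reversed to 0.096. With only the groups compared in the fit, all 5 calls were lost (limma adjusted p = 0.0873 for IL18 at 24 h and 0.214 to 0.216 at 48 h).

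To set storage beside NMP, each gene was ranked within each library among the 11143 genes listed above 0 in both tables. The tables come from different pigs, library kits and units, and normalized counts, unlike TPM, are not per length, so the part of NMP in a rank difference cannot be told apart from theirs and no test was made. CCL2 lay at percentiles 38.8 to 70.3 in the storage libraries and at 98.5 to 99.8 after NMP. CXCL2 lay at 26.0 to 53.0 and at 90.2 to 99.7, and PTGS2 at 3.81 to 24.8 and at 65.4 to 94.7. CXCL8 lay at 3.05 to 18.5 and at 46.7 to 91.7, and CX3CL1 at 27.2 to 61.8 and at 65.4 to 88.3.

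No member's storage and NMP percentiles overlapped, and the NMP percentiles lay above all storage percentiles for 11.7% of the 11143 genes. The difference of the median percentiles was 72.1 for PTGS2, 62.8 for CXCL2, 59.8 for CXCL8, 50.9 for CCL2 and 25.2 for CX3CL1. A difference at least as large was seen in 0.538% of the 11143 genes for PTGS2, 1.05% for CXCL2, 1.15% for CXCL8, 1.8% for CCL2 and 7.11% for CX3CL1. The hearts stored for 3 h before NMP also ranked above every storage library for each of the 5 genes.

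**Figure D4:**
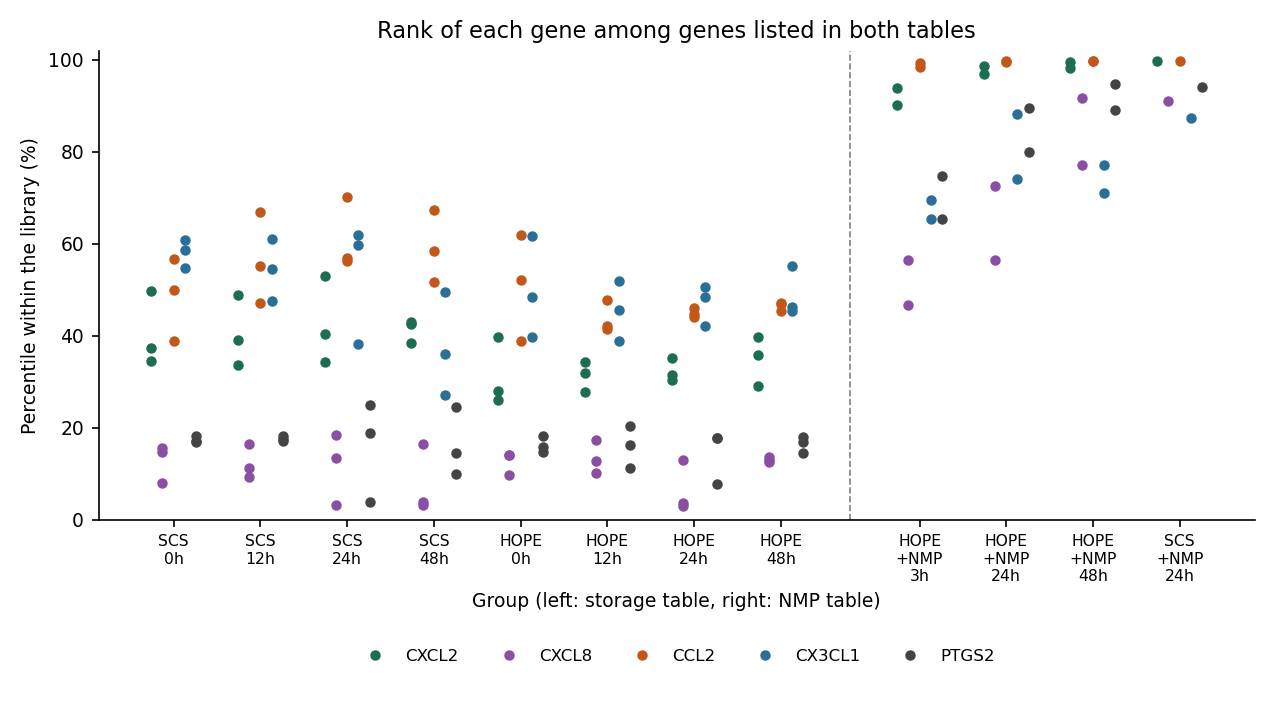
Percentile of each of 5 genes within each library, among the 11143 genes listed above 0 in both tables, for the storage groups (left of the dashed line) and the NMP groups (right). Each point is 1 library. After NMP, CCL2 is at 98.5 or above and CXCL2 at 90.2 or above in every library.

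The genes whose storage profiles most resembled each member were found by Pearson's r of log2(normalized count + 1) over the 24 storage libraries, which come from 6 pigs and share their depth and scaling, among 10389 genes with a mean of at least 50. CX3CL1 was closest to CAV1 (0.94), the caveolar coat protein of endothelial cells, F2R (0.94) and ANO6 (0.94). CXCL10 was closest to PTGER2 (0.88), a prostaglandin E2 receptor, CXCL9 (0.87), another ligand of CXCR3, and SNX25 (0.86). CXCL2 was closest to RASSF1, ADRA2C and PDE9A (0.90 each).

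CCL2 was closest to the mitochondrial gene COX2 (0.80), which encodes a subunit of cytochrome c oxidase and is not the cyclooxygenase, followed by NES (0.78) and CALR (0.76). PTGS2 and CXCL8, with few reads, had weaker nearest profiles, MAML3 at 0.72 and ZNF319 at 0.64. These coefficients describe 24 libraries and carry no test.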

How the data were processed

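Per the submitters' processing notes, the genome build was Sscrofa11.1. STAR 2.5.2b, HISAT2 2.2.1, Subread 1.5.2, featureCounts 2.0.6 and DESeq2 are among the tools named there, without their roles or arms. Per the labels' protocols, the arms used different poly(A) kits, and spike-in RNA was added in the perfusion arm. The deposited storage table holds a signal, gene counts the authors had divided by a size factor per library; whole reads were recovered for 100% of values (relative tolerance 1e-06). The deposited perfusion table, labelled as normalized counts, holds TPM summing to 1000000 per library, and 11 of its columns that match no sample were not used.

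Values were tested on the log2(value + 1) scale with limma 3.58.1 (R 4.3.3), all libraries of an arm in 1 fit, a mean-variance trend and Benjamini-Hochberg adjustment over all genes, at 0.05. Genes needed a mean of 10 normalized counts (14141 genes, 5 members) or 1 TPM (10986 genes, 5 members). Residual degrees of freedom were 16 and 3. edgeR 4.0.16 and DESeq2 1.42.0 on the recovered reads, other scalings, pseudocounts and filters, a replicate block and leaving out libraries were the alternatives. The fits were also run on simulated data. There libraries of 1 pig did not deviate together and the perfusion arm had a set spread, so that run does not measure their performance here. Storage libraries of 1 pig deviated together (r 0.23 to 0.73 over 36 pairs), so the block there is the animal; it was random (correlation 0.44) between conditions. Whether the perfused samples of 1 group are separate animals is not stated, so p-values measure the spread between these samples.

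Named genes are the 6 members, the 3 genes most correlated with each member and genes of the pathway lists. The listed genes were taken, per comparison, from those called, by largest absolute fitted difference. Where none was called, they were up to 3 by smallest p. The values of 1 listed gene, called between conditions at 48 h of storage, are not reported here. Members and lists were chosen with earlier results of these data known. Positions are from RefSeq (Sscrofa11.1), where all 6 members matched by symbol. No sequences are printed.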

Additional observations from a re-analysis of the deposited data

How the results depend on the processing

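No member passed in any comparison as reported; in 7 combinations of a comparison and a setting a count of members called was above 0. From 0 to 48 h of SCS it was 1 with the replicate block, 1 with the replicate block and no pig 3, and 2 with total-count scaling; for HOPE against SCS it was 0 to 2 at 24 h and 0 to 1 at 48 h when 1 pig was left out (CCL2 and CXCL10 at 24 h and CXCL10 at 48 h, without SCS pig 1), and 1 at 48 h with total-count scaling (CX3CL1, 2.26); for the difference in change at 48 h it was 1 with the block and no pig 3. Total-count scaling moved the median of all genes to -0.99 for 48 h of SCS and to 1.12 for HOPE against SCS at 48 h. Under it CX3CL1 (-2.70) and CXCL10 (-1.79) remained below that median in SCS, CCL2 reversed there to -0.36, and for HOPE against SCS at 48 h CCL2 reversed to 0.38 and CXCL2 to 0.42, both under the median of all genes. RELB reversed there (0.096), and so did CXCL10 (0.81), which also reversed without the SCS 48 h library of pig 5 (0.045; -0.89 to 0.045 over the pigs left out); at 0 h CXCL10 ran from -0.42 to 0.17 over the pigs left out. PTGS2 at 24 h of SCS reversed with edgeR (0.57), DESeq2 (0.55), a pseudocount of 10 (0.042) and without pig 5, blocked or not (0.83; -0.95 to 0.83 over the pigs). The SCS against HOPE difference after NMP reversed for CCL2 (-0.076) and PTGS2 (-0.27) with the replicate block, for CX3CL1 with quantile normalization (0.58) and without HOPE 24 h number 1 (0.18; leaving out 1 library gave -1.13 to 0.18), and for PTGS2 without HOPE 24 h number 2 (-0.26 to 0.75). In the perfusion arm same-numbered libraries correlated at only 0.06 to 0.18, which does not establish a pairing; with the block the 48 h against 3 h adjusted p by limma was 0.0505 for CXCL2, 0.0653 for CXCL8 and PTGS2 and 0.208 for CCL2, and it called 0 genes. Of the added alternatives, those without the 48 h SCS library of pig 5, the 0 h HOPE library of pig 6 and the blocked fits without a pig were chosen after seeing the data. Restricting ranks to 7779 genes above the minimum means lowered all 8 median percentiles of the 4 members in both: in storage to 13.1 for CXCL2, 29.6 for CCL2 and for CX3CL1 and 0.762 for PTGS2, and after NMP to 97.5, 99.6, 64.1 and 84.8. Depth limits CXCL8 and PTGS2 during storage.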
